A study of Mus musculus with 6 samples.

Results

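The 10 genes described here mark the inner lining of blood vessels and were measured in mouse mammary gland: the receptor genes Kdr, Flt1, Tek, Tie1, Ramp2 and Eng, the adhesion and surface genes Cdh5, Pecam1 and Emcn, and the clotting factor gene Vwf. They were taken by name as endothelial receptor and adhesion genes, a choice made with earlier results of these data known. Every probe set annotated to 1 of these 10 genes alone was taken. This gave 15 of the 10833 probe sets with a single gene (10 of 8251 genes). A probe set is the group of short oligonucleotides on an Affymetrix array that reports 1 transcript. One further probe set names Ramp2 together with a second gene and was left out. Thoracic mammary glands came from virgin F1 CF-1/FVB mice 16 weeks old, either wild type or transgenic for overexpression of luteinizing hormone (LH), the pituitary hormone that drives the ovary. Each group held 3 arrays and each array RNA pooled from 3 mice, 18 mice in all. The promoter that drives the transgene was not stated in the labels, and the RNA came from whole gland, with all its cell types.

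Endothelial cells form the wall of every blood vessel and carry a characteristic set of receptors and junction proteins. Vascular endothelial growth factor (VEGF) signals mainly through Kdr, with Flt1 as a tighter binding receptor that also exists in a soluble, ligand-trapping form, and the angiopoietins signal through Tek, with Tie1 as its partner. Ramp2 pairs with the receptor Calcrl to make a receptor for the peptide adrenomedullin, Eng (endoglin) is a co-receptor for ligands of the TGF-beta and BMP family, Cdh5 (VE-cadherin) and Pecam1 (CD31) join neighbouring endothelial cells, Emcn (endomucin) is a sialomucin of capillaries and veins, and Vwf binds platelets. In the mammary gland the capillaries run through the fat pad and around ducts and alveoli, and the bed around the alveoli expands when milk secretion develops.

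Promoter sequences are shown for 3 of the genes because the results run from a large fall (Emcn) to a receptor pair in which only one gene passed the test (Tie1 and Tek). The promoter table, from RefSeq on GRCm38.p6, held 6 of the 10 genes: Emcn, Eng, Tek, Tie1, Kdr and Flt1. The 250 bases before the annotated start are given 5′ to 3′ on the strand of the gene, at chr3:137340828-137341077 (plus strand) for Emcn, chr4:118489850-118490099 (minus strand) for Tie1 and chr4:94739039-94739288 (plus strand) for Tek. Capitals mark GGAA or its reverse complement TTCC, the core bound by ETS factors, a family that acts in many endothelial promoters.
Emcn: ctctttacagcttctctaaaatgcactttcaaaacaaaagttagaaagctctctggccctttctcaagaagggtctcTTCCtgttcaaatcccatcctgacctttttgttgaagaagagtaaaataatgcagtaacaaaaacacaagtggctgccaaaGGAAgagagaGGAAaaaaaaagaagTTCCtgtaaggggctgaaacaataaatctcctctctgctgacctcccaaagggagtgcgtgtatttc
Tie1: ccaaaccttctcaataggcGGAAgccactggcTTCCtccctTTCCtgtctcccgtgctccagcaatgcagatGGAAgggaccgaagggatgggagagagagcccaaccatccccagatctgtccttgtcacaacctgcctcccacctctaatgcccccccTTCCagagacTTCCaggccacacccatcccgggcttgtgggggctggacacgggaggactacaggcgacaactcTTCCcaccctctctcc
Tek: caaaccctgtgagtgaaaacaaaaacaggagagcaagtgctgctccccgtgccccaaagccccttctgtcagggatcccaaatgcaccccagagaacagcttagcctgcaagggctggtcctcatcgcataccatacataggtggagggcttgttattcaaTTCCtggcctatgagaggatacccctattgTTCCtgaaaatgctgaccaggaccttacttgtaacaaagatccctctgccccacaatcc

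The core occurred 7 times in the Tie1 promoter, 4 times in Emcn and 2 times in Tek, and 4, 4 and 3 times in Kdr, Flt1 and Eng. Such a short core is common: 93.4% of 32851 promoter windows of the same length held it on either strand, with a mean of 2.91 occurrences against 4.0 in these 6. The longer form AGGAAG (reverse complement CTTCCT), which contains the core, was present in Emcn, Eng, Tie1 and Flt1, 4 of 6, and in 29.5% of all windows. GATAA (reverse complement TTATC) was in 0 of the 6 and in 22.6% of all. The TATA box TATAAA (reverse complement TTTATA) was found in Flt1 alone, against 12.4% of all windows. These matches describe the letters of the windows and no binding was measured.

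The endothelial genes were lower in the LH transgenic glands as a group, but not without exception. Of 13 probe sets bright enough to test, 11 fell and none rose, where 10.8% of all 7453 tested probe sets fell and 10.5% rose. By gene, 8 of 10 fell (Ramp2, Emcn, Eng, Vwf, Cdh5, Tie1, Kdr and Flt1), while Tek and Pecam1 did not pass the test. The median log2 difference of the 13 probe sets was -0.87, against 0.02 over all tested. In 11 of the 13 every transgenic array lay below every wild type array, which held for 19.8% of all tested. Calls of at least 2-fold were made for 6 of the 13, against 3.81% of all. Because the genes were chosen with earlier results of these data known, these shares describe them and are no independent test. The call is limma with a Benjamini-Hochberg adjusted p under 0.05 over all tested probe sets, log2 differences set the transgenic against the wild type mean of log2(signal + 80.0), and signals are the deposited MAS5 values, given as mean ± SD over 3 arrays. In whole gland RNA, fewer endothelial cells, less RNA per endothelial cell and a larger share of RNA from other cells cannot be told apart.

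**Figure D1:**
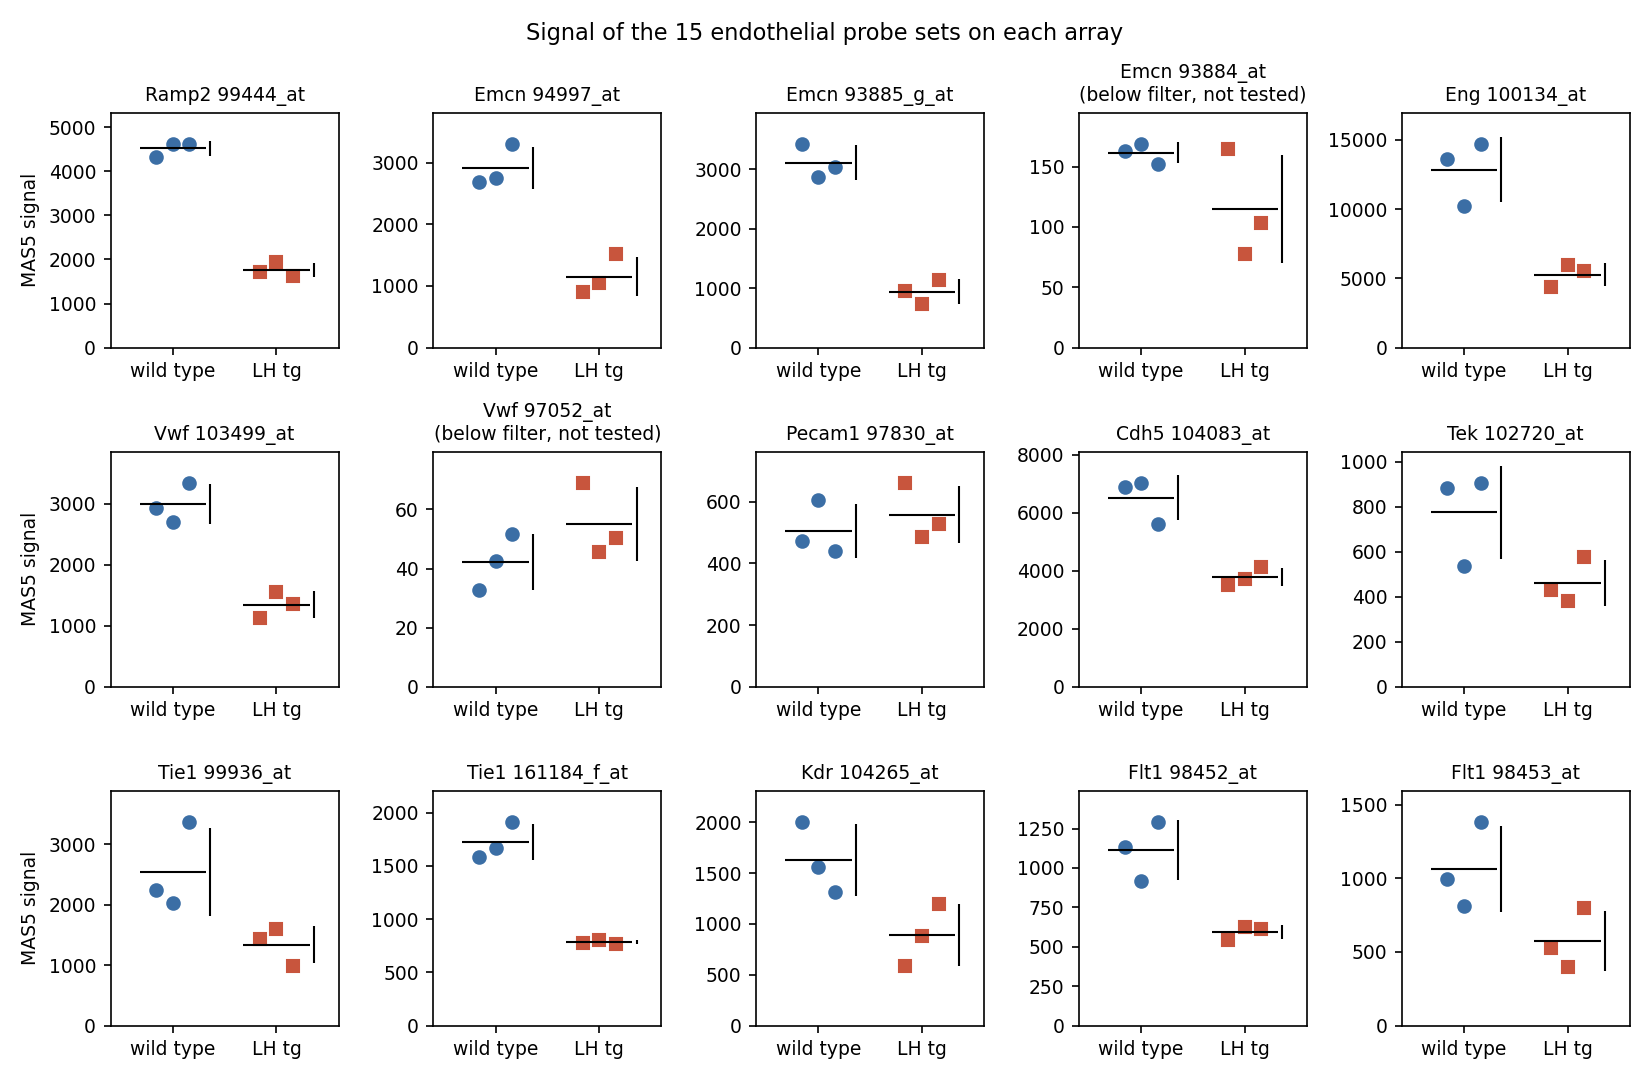
MAS5 signal (vertical axes, linear, starting at 0, with a range of their own in each panel) of the 15 endothelial probe sets on the 3 wild type arrays (blue circles) and 3 LH transgenic arrays (red squares), with the group mean as a horizontal line and ± SD as a vertical one. The groups are apart for Ramp2, for the brighter probe sets of Emcn and Vwf and for Eng, Cdh5, Tie1, Kdr and Flt1, and overlap for Tek, Pecam1 and both probe sets below the filter.

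The VEGF receptor genes were both lower, by nearly the same amount. Kdr, the main signalling receptor, had signals of 2005.0, 1562.1 and 1314.1 in wild type pools 1 to 3 and of 583.6, 882.3 and 1193.8 in LH transgenic pools 1 to 3. The groups did not overlap, but the highest transgenic pool and the lowest wild type pool were close. The mean went from 1627 ± 350 to 886.6 ± 305.1, a fall of 0.85 on the log2 scale (SE 0.24, adjusted p 0.0351 by limma). It was lost when wild type pool 1 (-0.70) or 2 (-0.87) or transgenic pool 1 (-0.60) or 2 (-0.87) was left out, and without the filter on dim probe sets (adjusted p 0.0745).

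Flt1 is read by a pair of probe sets, taken in the order of the plot of signals. On the first the wild type pools had 1130.8, 919.0 and 1293.8 and the transgenic pools 543.9, 623.8 and 614.5. The transgenic pools were close together and all below the wild type pools, and the difference was -0.81 (SE 0.17, adjusted p 0.00902 by limma). The second probe set had 992.0, 814.2 and 1384.3 in wild type and 530.0, 400.1 and 796.2 in transgenic pools, with less space between the groups. Its difference was also -0.82, but with an SE of 0.26 and an adjusted p of 0.0487 by limma. This call was lost when wild type pool 1 (-0.85) or 3 (-0.62) or transgenic pool 1 (-0.79) or 2 (-0.61) was left out. It was also lost with a floor in place of the pseudocount (adjusted p 0.0505), without the brightness filter (0.1) and without a trend in limma's variance (0.055).

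Within an array, the Kdr level minus the Flt1 level on the log2 scale was 0.51 ± 0.42 in wild type and 0.47 ± 0.39 in transgenic pools. The change in this gap was -0.04 (exact permutation test, two-sided, p = 1), with values between 0.02 and 0.78 in wild type and between 0.09 and 0.88 in transgenic pools. The spread within each group was far wider than the difference between them. With 3 arrays against 3, the smallest p this test can give is 0.1, for this and the 3 other pairs compared below.

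Of the Tie receptors, Tie1 fell and Tek did not pass the test. Tie1 on the first of its probe sets had 2238.2, 2022.6 and 3377.0 in wild type and 1438.2, 1594.8 and 995.4 in transgenic pools. The groups were apart, with wild type pool 3 above the rest. The difference was -0.87 (SE 0.22, adjusted p 0.0225 by limma), and it lost its call when wild type pool 3 (-0.66) or transgenic pool 1 (-0.93) or 3 (-0.68) was left out. The other Tie1 probe set, whose name ends in the _f suffix for probes shared by a sequence family, was tighter: 1588.9, 1669.4 and 1916.7 in wild type against 781.1, 802.9 and 767.8 in transgenic pools. It fell by 1.06 (SE 0.14, adjusted p 0.00124 by limma) and kept its call whichever array was left out.

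Tek, the angiopoietin receptor, had 881.6, 534.2 and 906.6 in wild type and 428.3, 379.2 and 576.9 in transgenic pools. Wild type pool 2 lay below the highest transgenic pool, so the groups overlapped. The difference was -0.64 with a 95% interval of -1.17 to -0.12 and an adjusted p of 0.0805 by limma. Without wild type pool 2 it was -0.86 and passed (adjusted p 0.031). The interval takes in both a slight difference and one as large as that of Tie1. The Tek level minus the Tie1 level changed by 0.23 (exact permutation p = 0.7, adjusted over 4 pairs 0.933), so a difference between these receptors was not detectable with 3 arrays a group.

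Ramp2 had the difference with the smallest standard error of the 10 genes. Its signals were 4323.6, 4627.7 and 4612.2 in wild type and 1711.8, 1939.2 and 1625.0 in transgenic pools. Both groups were tight and far apart, at 4521 ± 171 and 1759 ± 162. This was 38.9% of the wild type mean, a fall of 1.33 on the log2 scale (SE 0.13, adjusted p 0.00032 by limma), and 1.85% of all tested probe sets had a lower difference. Leaving out any 1 array gave -1.40 to -1.27.

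Eng, the co-receptor endoglin, had 13597.3, 10215.0 and 14717.3 in wild type and 4343.6, 5976.1 and 5503.8 in transgenic pools. The lowest wild type pool was well above the highest transgenic pool. The mean fell from 12843 ± 2344 to 5274 ± 840 (log2 -1.27, SE 0.17, adjusted p 0.00139 by limma). The Ramp2 level minus the Eng level differed by -0.06 between groups (exact permutation p = 0.7, adjusted 0.933), which is smaller than the SD of 0.30 and 0.21 within them.

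Of the junction genes, Cdh5 fell and Pecam1 did not pass the test. Cdh5, the cadherin of endothelial junctions, had 6884.6, 7031.9 and 5617.8 in wild type and 3506.0, 3718.4 and 4135.0 in transgenic pools, without overlap. It fell by 0.77 on the log2 scale (95% interval -1.07 to -0.46, adjusted p 0.0046 by limma), the smallest change among the genes that fell. Pecam1, an adhesion protein also found on platelets and leukocytes, had 471.6, 605.8 and 440.8 in wild type and 662.4, 486.3 and 526.5 in transgenic pools. The groups overlapped, and the difference was 0.12 with a 95% interval of -0.32 to 0.56 (adjusted p 0.698 by limma).

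The Pecam1 level minus the Cdh5 level was -3.66, -3.37 and -3.45 in wild type and -2.27, -2.75 and -2.80 in transgenic pools. All transgenic values lay above all wild type values, by 0.89 in the mean, at the smallest p that the exact permutation test can give (p = 0.1, adjusted over 4 pairs 0.4). The interval of Pecam1 does not reach the estimate of Cdh5. The Pecam1 probe set was dim, at the 48.2th percentile of all probe sets by mean signal against the 90.9th for Cdh5. No other probe set was annotated to this gene alone. The tested endothelial probe sets nearest to it in brightness were Tek (51st) and those of Flt1 (58.1th and 57.3th). Their differences were -0.64, -0.81 and -0.82. Whether dimness bears on the value of Pecam1 was not tested.

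Emcn, the sialomucin of capillary and venous endothelium, showed the largest fall on one of its probe sets. On that one it had 3434.1, 2868.8 and 3038.3 in wild type and 952.8, 734.3 and 1142.9 in transgenic pools. This was 30.3% of the wild type mean, a fall of 1.66 (SE 0.17, adjusted p 0.000433 by limma). On a second it had 2691.8, 2744.9 and 3307.7 against 901.1, 1041.0 and 1517.0, and fell by 1.31 (SE 0.19, adjusted p 0.00192). Both kept their calls under every setting tried. The third Emcn probe set had signals of only 77.2 to 169.0 over all arrays, fell below the filter, and differed by -0.33 in the fit without a filter (adjusted p 0.387 by limma).

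Vwf, the platelet-binding factor stored in endothelial granules, had 2937.3, 2697.9 and 3345.5 in wild type and 1123.3, 1559.5 and 1348.9 in transgenic pools on its brighter probe set. The groups were clearly apart, and Vwf fell by 1.12 (SE 0.16, adjusted p 0.00157 by limma). Its other probe set read 32.8 to 69.1 over all arrays, below the filter, and differed by 0.14 in the fit without a filter (adjusted p 0.598 by limma). Megakaryocytes also make Vwf, and platelets carry it. Their markers gave a summed signal of 425 to 546 in wild type and 340 to 518 in transgenic pools over 4 genes, none of which passed the filter on brightness.

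**Figure D2:**
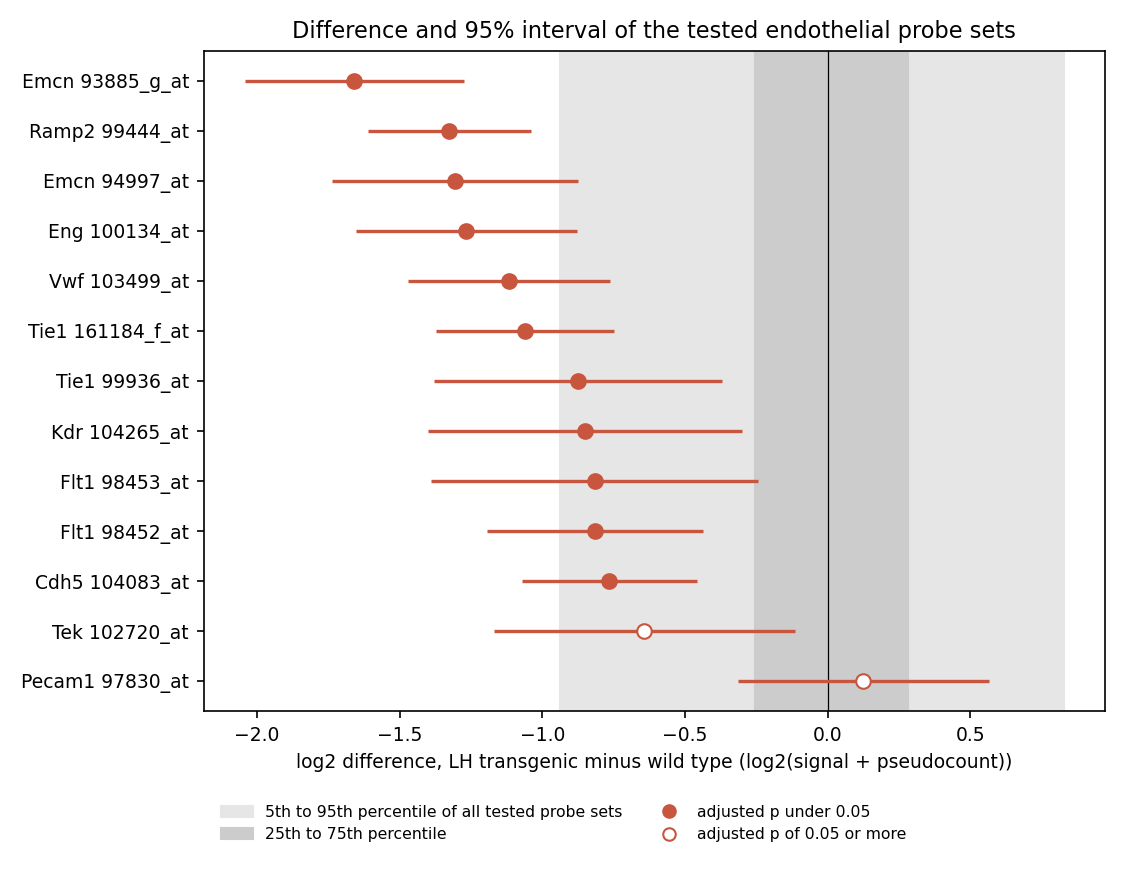
Log2 difference, LH transgenic minus wild type (horizontal axis), with its 95% interval for each of the 13 tested endothelial probe sets. Filled points passed the test, open points (Tek and Pecam1) did not, and the grey bands hold the middle of all 7453 tested probe sets (25th to 75th and 5th to 95th percentile, the latter from -0.94 to 0.83).

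The genes around these receptors were read from lists of ligands, partners, transcription factors and other endothelial genes. The lists too were chosen with earlier results of these data known, so their counts are a description. Of 107 such genes on the array 82 could be tested, and 31 fell and 5 rose, where 11.6% of all 5731 tested genes fell and 9.93% rose. The median log2 difference of the 82 was -0.32. Of these 36 calls, 22 were kept whichever array was left out, 21 among the genes that fell and 1 (Itga6) among those that rose.

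Ligands and co-receptors of the VEGF and angiopoietin system fell in 6 of 10 tested genes, and none rose (median -0.73). The co-receptor Nrp1 had 6244.5, 5901.3 and 7457.2 in wild type and 2627.2, 2292.7 and 2642.3 in transgenic pools, a fall of 1.34 (adjusted p 0.000428 by limma), with a second probe set at -0.73. Vegfa, the main ligand of Kdr and Flt1, fell from 1640 ± 118 to 893.0 ± 190.6 (log2 -0.84, adjusted p 0.00928). Vegfd (-0.82) and Vegfb (-0.71), a ligand of Flt1, were lower too, as was Flt4 (-0.75), the VEGF receptor of lymphatic vessels. Angpt2, a Tek ligand made by endothelial cells, fell from 796.1 ± 32.9 to 446.5 ± 83.1 (log2 -0.75). Flt4 and Angpt2 lost their calls without wild type pool 1 (-0.69 and -0.74) or wild type pool 3 (-0.75 and -0.72). Angpt2 and Vegfb were chosen after their values were seen.

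Around Ramp2, 1 gene of the adrenomedullin list passed the test. Mme, a peptidase that degrades adrenomedullin and other peptides, fell from 682.2 ± 55.4 to 232.8 ± 53.6 (log2 -1.30, adjusted p 0.0029 by limma) and was the one called among 4 tested genes. Adrenomedullin itself (Adm, chosen after its values were seen), with 349.3, 513.9 and 579.1 in wild type and 354.5, 224.6 and 239.1 in transgenic pools, had a difference of -0.66 that missed the threshold (adjusted p 0.0853). Calcrl, the receptor that Ramp2 needs, was dim, at 36.9 to 143.9 over all arrays, and was not tested. The other RAMP genes, chosen after their values were seen, gave no call. Ramp1 had 1622.8, 1819.0 and 1441.2 against 1956.4, 2245.6 and 2000.1, with no overlap and a difference of 0.33 (adjusted p 0.123, and -0.33 when arrays were scaled to bacterial controls). Ramp3, below the filter, had 111.4, 87.9 and 90.1 against 427.3, 326.4 and 115.0 (adjusted p 0.123 in the fit without a filter).

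In the pathway of Eng, the BMP target genes Id3 and Id1 fell, from 3063 ± 152 to 1337 ± 489 (log2 -1.21, adjusted p 0.00654 by limma) and from 1991 ± 194 to 916.6 ± 230.9 (log2 -1.08, adjusted p 0.00372). The ligand gene Tgfb2 rose from 755.3 ± 294.0 to 1572 ± 224 (log2 1.04, adjusted p 0.0184). That call was lost when transgenic pool 3 was left out (0.94) and under bacterial control scaling (0.40, adjusted p 0.177). The other 7 of 10 tested genes did not pass. Acvrl1, the type I receptor that works with Eng in endothelium, had 3 probe sets at 0.10, 0.39 and -0.24, none called.

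Junction and adhesion genes moved both ways, with 5 of 15 tested genes lower and 3 higher. Mcam (CD146), present on endothelium and on pericytes, fell by 1.21, the phosphatase Ptprm by 1.18, and Cldn5, the claudin of endothelial tight junctions, from 4679 ± 867 to 2419 ± 567 (log2 -0.94, adjusted p 0.0109 by limma). Cd34, a sialomucin of capillaries and of stromal progenitors, fell by 0.68 (adjusted p 0.0196), and the call was lost when wild type pool 2 (-0.57) or transgenic pool 1 (-0.57) was left out, and its second probe set was at -0.49 without a call. Icam2 did not overlap between groups but missed the threshold (-0.67, adjusted p 0.0852). Itga6, an integrin chain of basal epithelium as well as endothelium, rose from 2202 ± 12 to 5450 ± 922 (log2 1.26, adjusted p 0.000619). The cytokine-induced Icam1 (0.75) and Vcam1 (0.44) were higher as well, and were chosen after their values were seen. A further pair of Vcam1 probe sets, at -0.08 and 0.20, was not called. Icam1 lost its call when wild type pool 1 (0.65) or transgenic pool 1 (0.63) was left out, and Vcam1 without any 1 array other than LH transgenic pool 2 (0.39 to 0.48). With bacterial control scaling, Itga6 kept its call (0.59), while Icam1 (0.10) and Vcam1 (-0.23) did not.

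Genes linked to Vwf storage and to clotting fell in 4 of 9 tested, and none rose. Anxa2 (-1.16) and S100a10 (-1.01), the 2 chains of a complex that takes part in granule release and in plasmin formation but is made by many cell types, fell (a second S100a10 probe set, at -0.39, was not called), as did the protein C receptor Procr (-0.96, adjusted p 0.0103 by limma). Plat, tissue plasminogen activator, fell by 0.87 (adjusted p 0.0203) and lost its call without wild type pools 1, 2 or 3 (-0.90, -0.83 and -0.89). Thbd, thrombomodulin, had probe sets that disagreed, at 0.33 (adjusted p 0.153) and -0.98 (adjusted p 0.00828), chosen after their values were seen.

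Of 14 tested endothelial transcription factor genes, 6 fell and none rose. Sox18 fell from 4684 ± 355 to 2128 ± 45 (log2 -1.11, adjusted p 0.000537 by limma). The homeobox gene Meox2 (-1.46, adjusted p 0.00272) and Ets1 (-0.94, adjusted p 0.0112), an ETS factor whose family binds the core marked in the promoters above, fell too. A second Ets1 probe set, below the filter, differed by 0.12 in the fit without a filter (adjusted p 0.853 by limma). Klf4 fell by 0.84, a call lost without any 1 array other than LH transgenic pool 3 (-0.91 to -0.58). Fli1, another ETS factor, had a difference of -0.05 (adjusted p 0.923), and was chosen after its value was seen.

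Of 20 tested genes for endothelial enzymes, transport and other surface proteins, 7 fell and 1, Apln, rose. Nos3, the endothelial nitric oxide synthase, had 966.5, 1160.7 and 1309.7 in wild type and 482.3, 115.0 and 331.6 in transgenic pools, a fall of 1.77 (SE 0.34, adjusted p 0.00644 by limma). The water channel Aqp1 of capillaries fell by 1.03 and the C-type lectin receptor Cd93 by 0.96, both called whichever array was left out. A second Aqp1 probe set, below the filter, differed by 0.38 in the fit without a filter (adjusted p 0.437 by limma). The carbonic anhydrase Car4 fell by 1.10, with a call lost when wild type pool 1 (-1.08) or 3 (-1.07) or transgenic pool 2 (-1.03) was left out, and its second probe set was at -0.26 without a call. Apln, a peptide of sprouting endothelium that fat cells also secrete, rose by 0.78 (adjusted p 0.0264) and lost its call when wild type pool 1 (0.60) or 3 (0.79) or transgenic pool 1 (0.63) was left out, without the brightness filter (adjusted p 0.0579) and with bacterial control scaling (0.14). Apln was chosen after its value was seen.

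**Figure D3:**
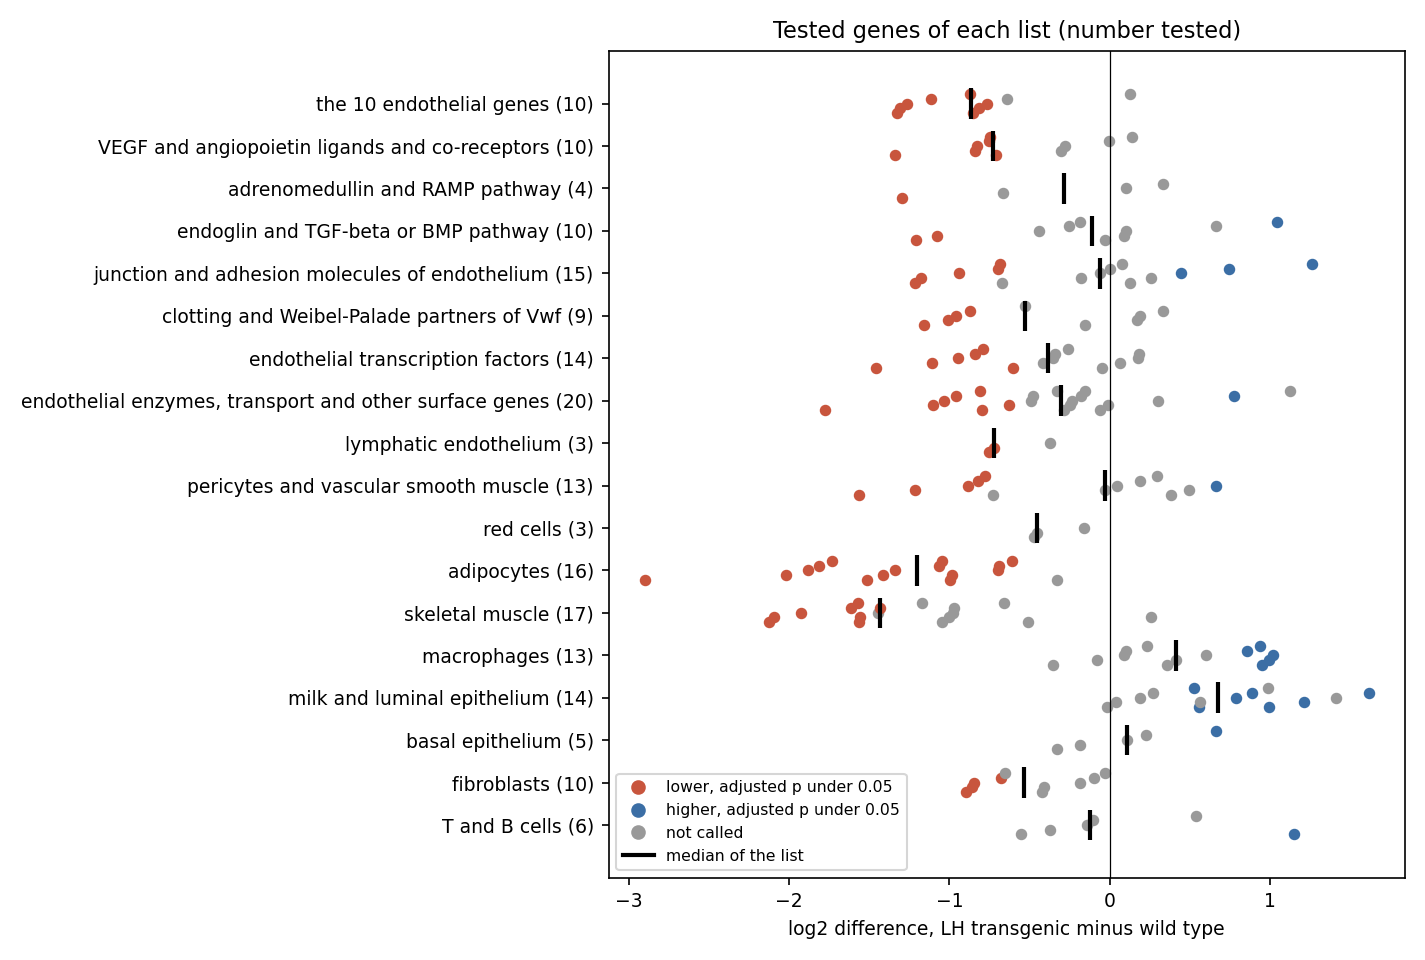
Log2 difference, LH transgenic minus wild type (horizontal axis), of every tested gene in each list, with the number tested in brackets. Red points fell, blue points rose, grey points did not pass the test, and black bars are list medians, which lay at -0.86 for the 10 endothelial genes, -1.20 for adipocyte genes and 0.68 for milk and luminal genes.

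The cells around the capillaries gave mixed readings. Of 13 tested genes of pericytes and vascular smooth muscle, 5 fell and 1 rose. The median of this list was -0.03, and 7 of the 13 had a difference below 0. The pericyte genes Notch3 (-0.82), Pdgfrb (-0.78), Rgs5 (-1.56) and Abcc9 (-0.89) were lower, together with Mcam, while the smooth muscle actin gene Acta2, also a gene of myoepithelial cells, rose by 0.66 (-0.02 with bacterial control scaling). Pdgfrb and Acta2 were chosen after their values were seen. A second Rgs5 probe set, below the filter, went the other way, with 195.1, 146.0 and 184.6 in wild type and 227.8, 232.7 and 209.1 in transgenic pools. Its difference was 0.25 in the fit without a filter (adjusted p 0.473 by limma). Notch3 kept its call whichever array was left out. Rgs5 lost it when wild type pool 2 (-1.36) or 3 (-1.52) or transgenic pool 1 (-1.59) was left out, Pdgfrb without wild type pool 3 (-0.68), and Abcc9 without any 1 array other than LH transgenic pool 3 (-0.93 to -0.74). Of lymphatic genes, Flt4 and Reln (-0.72) fell among 3 tested, Reln losing its call without any 1 array other than LH transgenic pool 3 (-0.81 to -0.55), and the defining markers Lyve1 and Prox1 were dim, at 86.7 to 310.3 and 18.4 to 92.3. None of 3 tested red cell genes passed limma's threshold (0 of 3 at an unadjusted p under 0.05), and their summed signal was 32759 to 57843 in wild type and 24687 to 39400 in transgenic pools.

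Markers of some other cell types of the gland also differed between groups, where 11.6% of all tested genes fell and 9.93% rose. Adipocyte markers, 15 of 16 tested, fell with a median of -1.20, and their summed signal was 255899 to 295903 in wild type and 115649 to 139996 in transgenic pools. Fibroblast markers fell in 4 of 10. Of basal epithelial markers 1 of 5 (Acta2) rose, and of T and B cell markers 1 of 6, with medians of 0.11 and -0.125. The summed signal of the basal markers was 19050 to 22186 in wild type and 25222 to 28362 in transgenic pools, without overlap. That of the T and B cell markers overlapped, at 29547 to 35436 and 25204 to 33108. Milk and luminal markers rose in 7 of 14 and macrophage markers in 5 of 13, with summed signals of 234249 to 350571 against 487803 to 583513 and of 48911 to 65542 against 83509 to 98882. Their medians of 0.68 and 0.41 turned to -0.01 and -0.25 with bacterial control scaling. The part of these shifts in the endothelial result was not tested.

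Markers of skeletal muscle, a tissue rich in capillaries, fell in 8 of 17 tested genes and split the transgenic group. The summed signal of 20 muscle genes was 118158 to 134074 in wild type pools, 26924 and 31356 in LH transgenic pools 1 and 2, and 106501 in LH transgenic pool 3. In pool 3, where the muscle level was near that of wild type (-0.16 relative to the wild type mean, log2 scale), the mean of the 10 endothelial genes was at -0.80, against -1.01 and -0.84 in pools 1 and 2 and -0.12 to 0.08 in wild type pools. Kdr, Tek, Cdh5, both tested Emcn probe sets and the second of Flt1 were highest in pool 3 among transgenic pools, whereas Ramp2 and both Tie1 probe sets were lowest there.

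**Figure D4:**
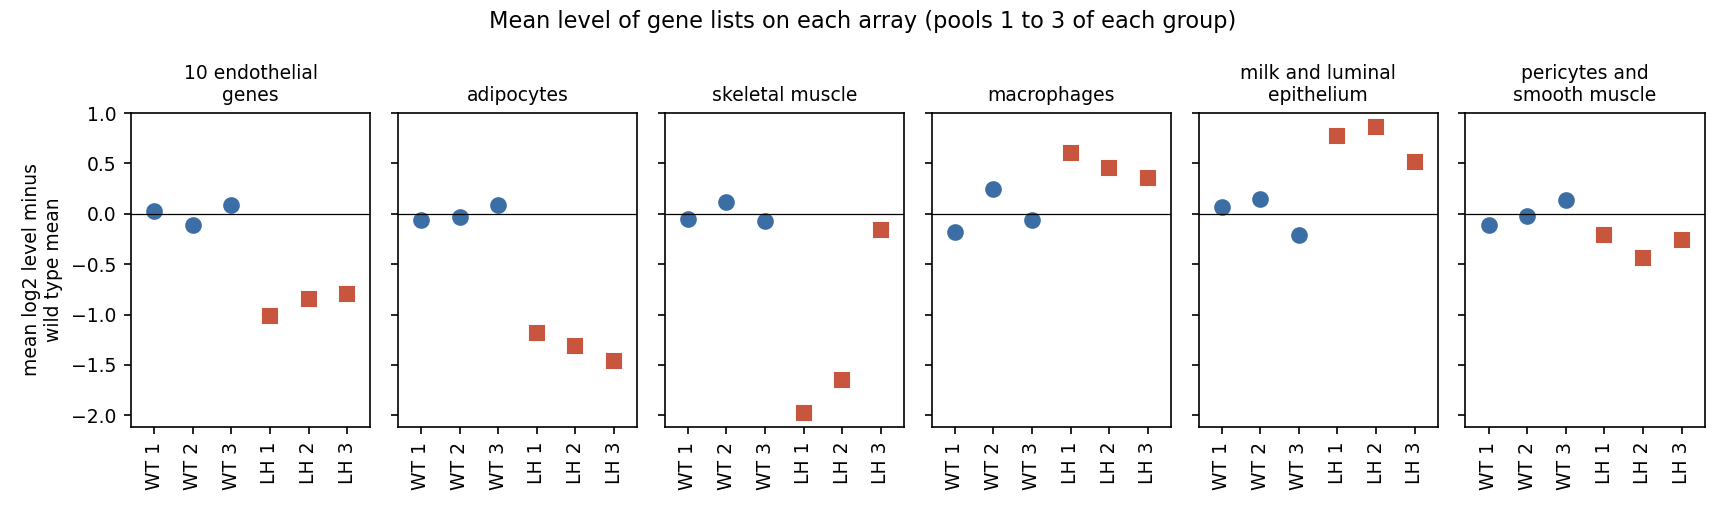
Mean log2 level of each gene list minus its wild type mean (vertical axis) on each of the 3 wild type (blue circles) and 3 LH transgenic arrays (red squares). The endothelial genes lay between -1.01 and -0.80 in all 3 transgenic pools, while the muscle genes lay at -1.97 and -1.65 in pools 1 and 2 and at -0.16 in pool 3.

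With the muscle level as a covariate, which leaves 3 residual degrees of freedom, 7 of the 13 endothelial probe sets were called lower, against 5.31% of all probe sets. Ramp2 (-1.42), Emcn (-1.40 and -0.85), Eng (-1.18), Vwf (-1.07) and Tie1 (-1.31 and -1.09) kept their calls. Cdh5 (-0.60, adjusted p 0.0776 by limma), Flt1 (-0.78 and -0.39) and Kdr lost theirs, and Kdr went from -0.85 to -0.30 (SE 0.29, adjusted p 0.547). Of the 31 pathway genes that fell, 13 kept their calls, among them Nrp1, Mme, Id1, Mcam, Ptprm, Cldn5, Sox18, Aqp1 and Cd93. Vegfa (-0.68), Angpt2 (-0.54), Nos3 (-1.71), Meox2 (-1.05) and Ets1 (-0.81, adjusted p 0.14 by limma) did not. Of the 5 that rose, Itga6 alone kept its call. Among pericyte genes Notch3 (-0.97) kept its call, while Rgs5 (-0.76, adjusted p 0.39), Abcc9 (-0.53, adjusted p 0.306) and Pdgfrb (-0.95, adjusted p 0.0608) lost theirs. The lymphatic genes Flt4 (-0.96, adjusted p 0.0539 by limma) and Reln (-0.53, adjusted p 0.32) lost theirs as well.

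The scale of the arrays was set by MAS5, which brings each array to one target, and the bacterial control RNAs added before hybridisation were brighter on the transgenic arrays. The labels do not say whether these controls were added in equal amount to each array, so a value scaled to them, here or above, holds any difference in that amount. Scaling each array to its 9 bacterial control probe sets moved the median of all tested probe sets from 0.02 to -0.62, and 51.8% of them were then called lower. On that scale 12 of the 13 endothelial probe sets were lower, Tek (-1.24) now among them, and Pecam1 turned to -0.47 without a call (adjusted p 0.163 by limma). Relative to the shifted median the values were close to those above, at -1.37 for Ramp2, -1.33 for Eng, -0.82 for Cdh5, -0.87 for Kdr, -0.62 for Tek and 0.15 for Pecam1.

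**Figure D5:**
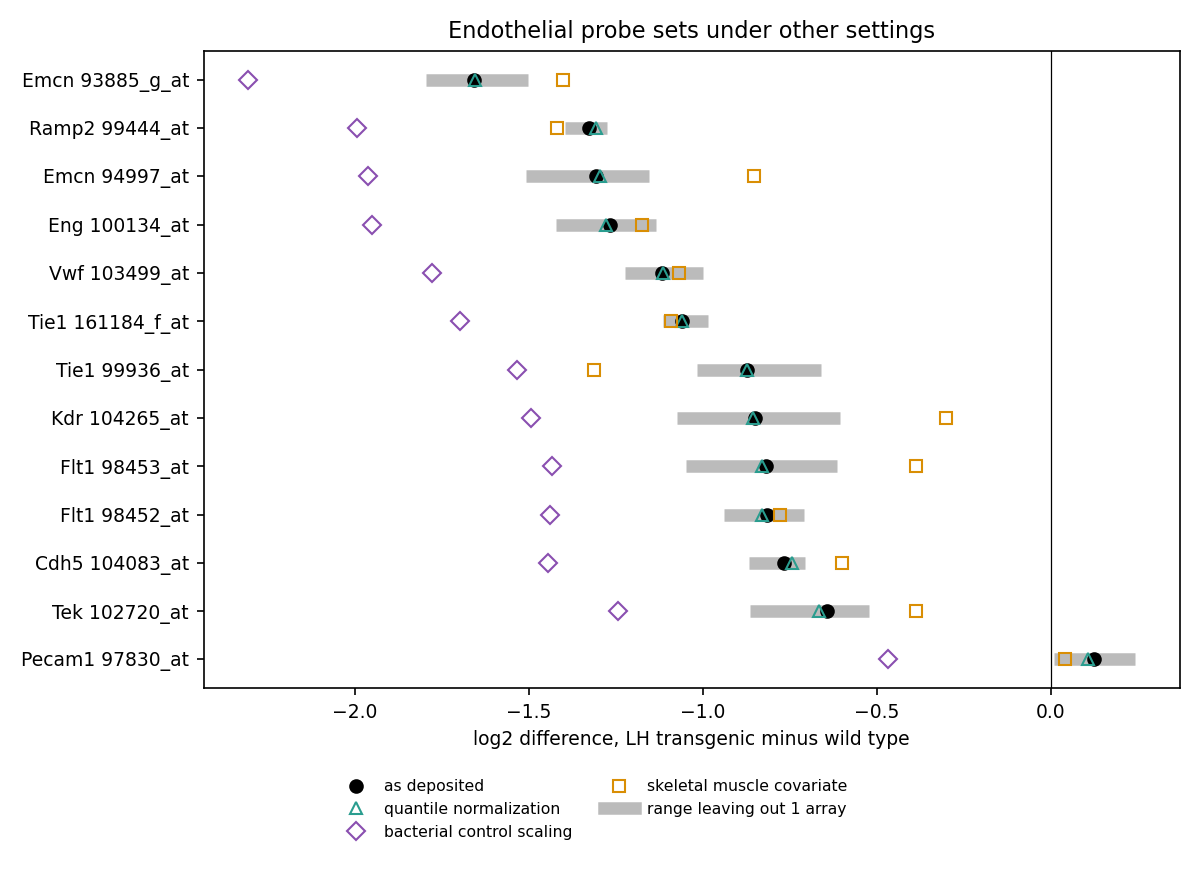
Log2 difference of each tested endothelial probe set (horizontal axis) as deposited (black), after quantile normalization (green triangles), scaled to bacterial controls (purple diamonds) and adjusted for the skeletal muscle level (orange squares), with the range over leaving out 1 array as a grey bar. Bacterial control scaling moves every point lower, Kdr, Tek and the second Flt1 probe set lie at -0.30 to -0.39 with the covariate, and Pecam1 stays within 0.01 to 0.24 when 1 array is left out.

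The 5 other genes with the pattern over the 6 arrays most like the mean of the 10 were taken from 5721 genes compared by Pearson correlation of log2 levels. They were Mapk6 (r = 0.998), Maoa (0.997), G3bp2 (0.996), Hspb8 (0.994) and Egln1 (0.994), and 195 genes reached at least 0.95. These values describe 6 arrays in 2 groups and mostly restate the difference between them. Hspb8, a small heat shock protein, differed the most of the 5, with 5925.2, 5019.4 and 6095.0 in wild type and 1214.3, 1839.7 and 1584.4 in transgenic pools. Egln1, the oxygen-sensing prolyl hydroxylase, had 3351.8, 2965.8 and 3522.7 against 1900.5, 1921.4 and 2056.0.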

How the data were processed

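RNA of 3 wild type and 3 LH transgenic pools was hybridised to Affymetrix mouse arrays, and groups were taken from the source names. The authors deposited one linear intensity per probe set and array, and per the submitters' processing notes the tool was MAS5, with no version stated. MAS5 scales each array to one target (trimmed mean 1500.8 or 1500.9), so a shift of most genes would not show. The table held 12488 probe sets, 66 of them controls. Platform annotation named 1 gene for 10833, several for 396 and none for 1193, and 10817 gene identifiers matched RefSeq on GRCm38.p6 with 0 symbols changed.

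Intensities became log2(signal + 80.0), the pseudocount being the 20th percentile, which understates changes of dim genes. Probe sets with a mean of at least 336.0 (40th percentile) were tested with limma 3.58.1 (lmFit, eBayes with a trend, R 4.3.3), two-sided, with Benjamini-Hochberg adjustment over all 7453 tested. For lists, the brightest probe set stood for its gene. Pools are separate sets of mice, so the spread holds differences between pools and technical error. Of list genes, those named are up to 4 called per list by size, 6 named always (Vegfa, Calcrl, Acvrl1, Cldn5, Icam2 and Cd34), the 5 most correlated genes, and others said to be chosen after their values were seen. The same rule holds for cell type lists, of which only pericyte and lymphatic genes are named and the rest are given by counts. Members and lists were chosen with earlier results of these data known. The fit was tested on simulated data. Alternatives were quantile normalization, median centring, bacterial control scaling, a floor at 16.8, a pseudocount of 325.5, no filter, a filter at 933.0, eBayes without a trend or robust, array weights, the skeletal muscle covariate (mean of 17 genes), 1 probe set a gene, and leaving out each array. Python 3.11.15 with pandas 2.3.3 and matplotlib 3.10.9 searched promoters and drew plots.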

Additional observations from a re-analysis of the deposited data

How the results depend on the processing

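Of the endothelial probe sets tested, 13 in most settings, 7 to 12 were called lower over all settings and none higher. The count was 8 to 11 when 1 array was left out, where 6.8% to 12% of all tested probe sets were lower. It was 7 with the skeletal muscle covariate (5.31% of all) and 12 with bacterial control scaling (51.8% of all). It was 9 of 15 without a filter, 9 of 9 with the higher filter and 8 of 10 with 1 probe set a gene. All tested probe sets called numbered 1586 as reported, 3999 with bacterial control scaling, 698 with the muscle covariate, and 941 to 1641 when 1 array was left out. Under bacterial control scaling, Pecam1 (-0.47), Acta2 (-0.025), Vcam1 (-0.23), Acvrl1 (-0.56), Ramp1 (-0.33) and Thbd (-0.29) turned below 0, and Acvrl1 also did with the covariate (-0.16). For 3 of the 4 pairs of genes, the change in the gap changed sign under some settings. Kdr minus Flt1 ranged from -0.28 to 0.16 when 1 array was left out, Tek minus Tie1 from -0.10 to 0.47, and Ramp2 minus Eng from -0.17 to 0.11 (0.009 with the larger pseudocount). Pecam1 minus Cdh5 ranged from 0.72 to 0.99 when 1 array was left out. The cause was not tested. No paired analysis was possible because the labels give no replicate numbers shared between groups. The number of arrays limits the precision, and detection calls that would set signal against background were not used here.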

Other observations

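Notch4, a Notch receptor of endothelium in the list of surface genes, was read by probe sets that disagreed, and was chosen here after its values were seen. On the brighter one, whose _f suffix marks probes shared by a sequence family, the signals were 18045.9, 37159.1 and 980.3 in wild type pools 1 to 3 and 5671.8, 28381.5 and 45250.5 in LH transgenic pools 1 to 3, a spread within each group far beyond that of any of the 15 endothelial probe sets. On the other the means were 657.4 in wild type and 447.7 in transgenic pools, a difference of -0.50 with no overlap between groups (adjusted p 0.111 by limma).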
